A study of Mus musculus with 40 samples.

Results

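The 8 genes described here encode enzymes that turn lanosterol into cholesterol: Cyp51, Tm7sf2, Msmo1, Nsdhl, Hsd17b7, Ebp, Sc5d and Dhcr7. They were taken by symbol from a table of 32544 gene rows of mouse liver RNA-seq counts, and all 8 were among the 12616 genes with enough counts to be tested. The rule names the genes by symbol and uses no measured value, though the list was chosen with earlier results of these data known.

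Livers came from germ-free male C57BL/6 mice at postnatal day 64. The mice had been given VB (delta-valerobetaine, a trimethylated amino acid derivative made by gut bacteria) or vehicle for 6 weeks. There were 4 groups of 5 mice: VB on Western diet, vehicle on Western diet, VB on control diet and vehicle on control diet. Every group thus shared the germ-free state, in which no microbial VB is made, and no collection time is given in the labels. In 1 of the 2 lane files of Western diet VB mouse 1 the treatment label says vehicle while the title says VB; the mouse was kept as VB, and the calls given below are also stated without it, while levels, correlations and marker ranges include it.

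Cholesterol synthesis in the liver runs through the mevalonate pathway to squalene and then to lanosterol, the first sterol. The enzymes that follow sit in the endoplasmic reticulum. They strip the extra methyl groups from lanosterol, move and reduce its double bonds, and end at cholesterol. Most of their genes are targets of SREBP2, a transcription factor held in the endoplasmic reticulum membrane when that membrane is rich in sterols.

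In the order of the steps, Cyp51 encodes the haem monooxygenase that removes the first methyl group, and Tm7sf2 encodes the reductase that saturates the double bond it leaves. Msmo1 (an oxidase), Nsdhl (a decarboxylating dehydrogenase) and Hsd17b7 (a keto reductase) together remove the remaining pair of methyl groups. Ebp encodes the isomerase that shifts a ring double bond, Sc5d the desaturase that adds another, and Dhcr7 the reductase that removes the one Ebp had moved, in the last ring step.

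Promoter sequence is shown for 3 members with different diet responses, described further on: Nsdhl, among the 3 that fell most, Sc5d, which fell less and was called higher with VB on Western diet, and Ebp, which fell least. Each run is the 250 bases before the RefSeq start on GRCm38.p6, read 5′ to 3′ on the gene's strand, and the capitals mark the NF-Y box CCAAT or its reverse complement ATTGG.
Nsdhl (chrX:72918271-72918520, plus strand): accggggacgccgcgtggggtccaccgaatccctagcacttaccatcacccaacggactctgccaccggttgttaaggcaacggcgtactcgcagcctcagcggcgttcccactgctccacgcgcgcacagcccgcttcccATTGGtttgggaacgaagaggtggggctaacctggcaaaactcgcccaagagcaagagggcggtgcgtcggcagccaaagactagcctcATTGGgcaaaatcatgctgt
Sc5d (chr9:42264301-42264550, minus strand): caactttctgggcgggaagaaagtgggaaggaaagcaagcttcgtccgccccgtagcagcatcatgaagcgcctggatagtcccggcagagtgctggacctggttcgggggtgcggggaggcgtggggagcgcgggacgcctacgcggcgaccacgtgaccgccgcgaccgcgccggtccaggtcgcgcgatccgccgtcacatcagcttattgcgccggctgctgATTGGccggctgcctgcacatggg
Ebp (chrX:8193513-8193762, minus strand): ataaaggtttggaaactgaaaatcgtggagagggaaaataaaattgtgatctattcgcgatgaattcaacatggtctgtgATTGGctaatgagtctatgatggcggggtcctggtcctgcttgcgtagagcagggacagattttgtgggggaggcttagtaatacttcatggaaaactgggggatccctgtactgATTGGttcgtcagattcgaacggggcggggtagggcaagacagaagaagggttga

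All 8 members had a CCAAT match on either strand within their RefSeq windows of 250 bases before to 50 after a start. Over all 32851 such windows, 37.4% held CCAAT. The GC box GGGCGG was also matched in all 8 members, and in 35.7% of all windows. The E-box CACGTG was matched in 3 members, Hsd17b7, Sc5d and Dhcr7, and in 7.15% of all windows. The letters TCACNCCAC, a form of the sterol regulatory element, were matched in none of the 8 and in 1.24% of all windows. No matches of different motifs overlapped, and Dhcr7 had 3 windows, so its chance of a match is higher. Nsdhl, with a deep diet response, and Ebp, with the shallowest, both held CCAAT and GC box matches.

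**Figure D1:**
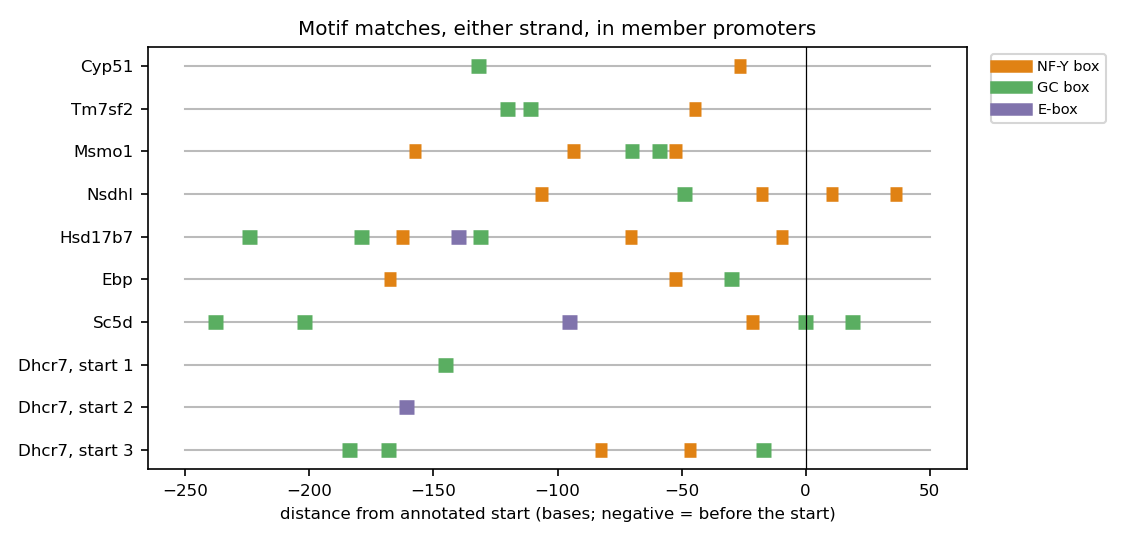
Motif matches in the RefSeq promoter windows of the 8 members, drawn by distance in bases from the annotated start (x axis). Every member has at least 1 CCAAT and 1 GC box match, 3 have an E-box, and none has the sterol regulatory element letters.

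Library depth was 16315342 to 24566686 counts per mouse, and the members were counted 131 to 15756 times each. The spread of single members between mice was not compared with counting error. Summed hepatocyte markers (6 of 6 present) ran from 41295 to 65632 CPM (counts scaled to a common library size) over the 20 mice, and their group ranges overlapped. Lymphocyte markers stayed at or below 3.74 CPM. Adipocyte markers ran from 9.56 to 79.4 CPM in Western diet VB mice, from 41.1 to 287 in Western diet vehicle mice, from 5.71 to 9.46 in control diet VB mice and from 6.80 to 10.2 in control diet vehicle mice. In Western diet vehicle mice the sum was mostly Cfd, at 30.1 to 265 CPM, against 4.97 to 32.3 in Western diet VB mice. On Western diet Adipoq reached 7.31 CPM with VB and 0.176 with vehicle, Lep 2.23 and 0, and Plin1 2.44 and 0.176. The medians of Adipoq and Lep were 0 in both of these groups. Acinar markers, nearly all Cela1, ran from 34.9 to 42.4 CPM with VB on Western diet and from 16.1 to 24.7 with vehicle. Cpa1 was 0 in both, while Ctrb1, whose median was 0 in both, reached 3.29 CPM with VB and 0.088 with vehicle. Summed erythroid markers on Western diet reached 2712 CPM with VB (median 703) and 1422 with vehicle (median 1022). Whether the highest adipocyte, acinar and erythroid values with VB came from the same mouse was not tested. Reads of the 21 Mup genes took 15.8% to 25.2% of counts in Western diet VB mice and at most 13.7% elsewhere. Mitochondrial reads were 4.62% in Western diet vehicle mouse 4 and at most 3.33% elsewhere. The main axis of variation of 21 circadian genes, called the clock score below (SD units), averaged 0.24 ± 0.41 in Western diet VB mice, 1.30 ± 0.12 in Western diet vehicle mice, -0.25 ± 0.25 in control diet VB mice and -1.29 ± 0.38 in control diet vehicle mice (SD, n = 5 each). Library names differ in form between the diets, so that any handling that follows them cannot be told apart from diet. In bulk liver, fewer cells of a type and less RNA per cell cannot be told apart.

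Per kilobase of exon (union of GENCODE M21 exons, which may not be the annotation used for counting), Ebp and Sc5d stood above the other members in every group. Ebp averaged 96.3 ± 11.2 CPM per kb in Western diet VB mice, 88.7 ± 11.6 in Western diet vehicle mice, 119 ± 3.98 in control diet VB mice and 138 ± 8.05 in control diet vehicle mice. Sc5d averaged 59.1 ± 9.13 CPM per kb in Western diet VB mice, 43.7 ± 7.86 in Western diet vehicle mice, 103 ± 17.7 in control diet VB mice and 118 ± 13.4 in control diet vehicle mice. On control diet the ranges of this pair overlapped, while in both Western diet groups every mouse had Ebp above the highest Sc5d value.

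Of the other 6 members, Msmo1 and Nsdhl kept the fifth and the sixth place in vehicle mice, and 4 changed place with the diet. In control diet vehicle mice they followed in the order Cyp51 (45.8 ± 7.07 CPM per kb), Tm7sf2 (36.7 ± 1.74), Msmo1 (33.1 ± 5.61), Nsdhl (24.3 ± 3.24), Dhcr7 (12.5 ± 1.30) and Hsd17b7 (11.5 ± 1.24). There Cyp51 lay clear of Tm7sf2, and Nsdhl clear of Dhcr7, while Tm7sf2 and Msmo1, Msmo1 and Nsdhl, and Dhcr7 and Hsd17b7 overlapped. In Western diet vehicle mice the order was Tm7sf2 (7.46 ± 0.62 CPM per kb), Hsd17b7 (4.38 ± 0.26), Msmo1 (4.26 ± 0.73), Nsdhl (3.47 ± 0.85), Cyp51 (3.27 ± 0.69) and Dhcr7 (1.99 ± 0.35), and of these neighbours Tm7sf2 alone was clear of the next. In vehicle mice Cyp51 thus took the seventh place of the 8 on Western diet, against the third on control diet, and Hsd17b7 took the fourth place on Western diet, against the last on control diet. In VB mice Cyp51 took the fifth place on Western diet, against the third on control diet, and Hsd17b7 the sixth on Western diet, against the seventh on control diet.

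Ebp and Sc5d together made up 82.4% ± 0.78 of the summed per-kb level of the 8 genes in Western diet VB mice, against 84.2% ± 1.83 in Western diet vehicle mice. Their share was 62.1% ± 1.78 in control diet VB mice and 61% ± 2.62 in control diet vehicle mice (SD, n = 5 each). The sum itself was 188.4 ± 20.8 CPM per kb in Western diet VB mice, 157 ± 15.4 in Western diet vehicle mice, 358 ± 34.5 in control diet VB mice and 420.2 ± 30.2 in control diet vehicle mice.

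**Figure D2:**
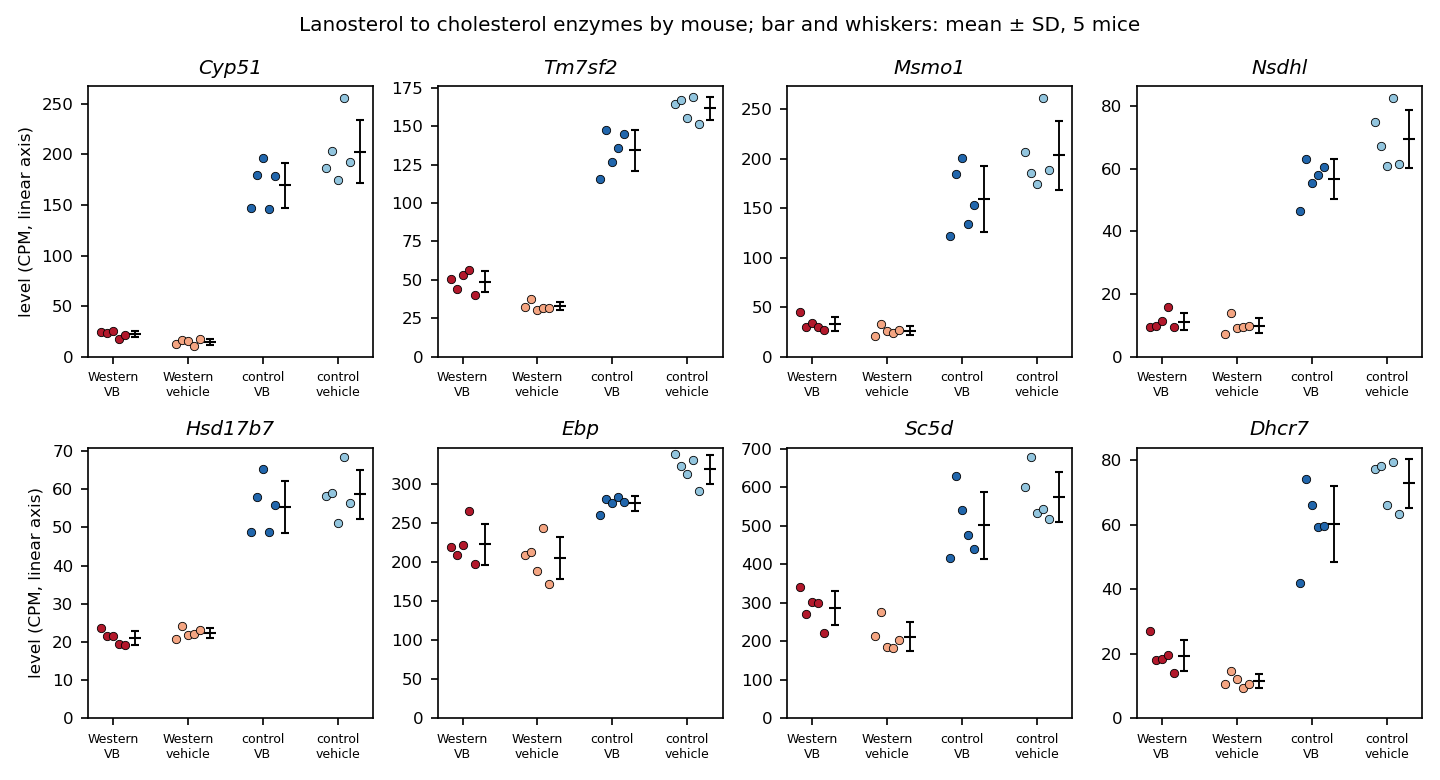
Level of each of the 8 members in every mouse (y axis, CPM, linear, from 0; each member has its own scale), in the groups Western diet VB, Western diet vehicle, control diet VB and control diet vehicle, with the mean and SD beside the points (n = 5). Western diet mice lie below control diet mice for every member but Ebp, whose ranges overlap in VB mice, and the gap is widest for Cyp51.

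The first comparison is of the diets, made separately in VB mice and in vehicle mice, which share no animals. All 8 members were lower on Western diet in both. The size of the fall differed widely between them: Cyp51 kept 13.3% of its control diet mean in VB mice and 7.14% in vehicle mice, whereas Ebp kept 80.9% in VB mice and 64.3% in vehicle mice. In edgeR's quasi-likelihood test with Benjamini-Hochberg adjustment over all genes tested, 8 of 8 passed an adjusted p of 0.05 in VB mice, where 6.44% of all genes were called in either direction and 3.22% as lower. In vehicle mice 8 of 8 passed as well, where 16.5% of all genes were called and 7.59% as lower. The groups did not overlap for 7 members in VB mice, against 4.48% of all genes that were lower without overlap. In vehicle mice all 8 were lower without overlap, against 5.77% of all genes. The median log2 change of the members was -1.55 in VB mice and -2.47 in vehicle mice, beside medians over all genes of 0.0020 in VB mice and 0.0185 in vehicle mice. Without Western diet VB mouse 1, 7 of 8 were called in VB mice and 8 of 8 in vehicle mice. The summed adipocyte markers were also higher in every Western diet mouse than in any control diet mouse of the same treatment. In Western diet vehicle mice that sum was mostly Cfd, and the part of these markers in the diet results was not tested.

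Cyp51 (chromosome 5, 4081145 to 4104746, minus strand, GRCm38) had 24.9, 23.0, 25.6, 17.5 and 21.5 CPM in Western diet VB mice 1 to 5, against 146.6, 179, 197, 145.6 and 178 CPM in control diet VB mice, and values by mouse keep that order throughout. It had 12.3, 16.4, 15.9, 10.2 and 17.3 CPM in Western diet vehicle mice, against 186, 203, 175, 255 and 192 CPM in control diet vehicle mice. No Western diet mouse came near the lowest control diet mouse, and the control diet vehicle group held 1 high mouse, number 4. The log2 change was -2.91 (SE 0.15, adjusted p = 7.30e-12, edgeR) in VB mice and -3.81 (SE 0.15, adjusted p = 6.38e-14) in vehicle mice. Of its exon bases, 3.76% lie opposite exons of Akap9, and the strand setting of the counting is not given in the sources used here.

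Tm7sf2 (chromosome 19, 6062821 to 6068373, minus strand) had 50.8, 43.9, 52.9, 56.8 and 40.2 CPM in Western diet VB mice, against 116, 148, 127, 136 and 145 CPM in control diet VB mice. It had 32.5, 37.6, 30.4, 32.0 and 31.7 CPM in Western diet vehicle mice, against 165, 167, 155.5, 169 and 151 CPM in control diet vehicle mice. Its 4 groups thus formed 4 separate ranges with no mouse in common. The log2 change was -1.46 (SE 0.0947, adjusted p = 8.18e-10, edgeR) in VB mice and -2.30 (SE 0.0976, adjusted p = 1.49e-13) in vehicle mice. It shares 532 exon bases, 12.1% of its exon length, with Vps51 on the same strand, where reads of the 2 genes could be mixed. Vps51 itself had diet log2 changes of 0.00 in VB mice and -0.02 in vehicle mice and was not called.

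Msmo1, the first enzyme of the complex that removes the remaining methyl pair (chromosome 8, 64718139 to 64733792, minus strand), had 45.4, 30.0, 34.5, 30.2 and 26.8 CPM in Western diet VB mice, against 122, 185, 200.4, 134 and 154 CPM in control diet VB mice. It had 21.4, 33.2, 25.7, 23.5 and 27.1 CPM in Western diet vehicle mice, against 207, 185, 174, 261 and 189 CPM in control diet vehicle mice. The diets were far apart, while within Western diet the VB and vehicle ranges overlapped, with VB mouse 1 the highest. The log2 change with diet was -2.25 (SE 0.16, adjusted p = 3.83e-09, edgeR) in VB mice and -2.96 (SE 0.17, adjusted p = 4.35e-11) in vehicle mice.

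Nsdhl (chromosome X, 72918557 to 72958514, plus strand), whose promoter is printed above, had 9.5, 9.80, 11.5, 15.8 and 9.37 CPM in Western diet VB mice, against 46.6, 63.1, 55.5, 57.9 and 60.6 CPM in control diet VB mice. It had 7.22, 13.8, 9.28, 9.37 and 9.72 CPM in Western diet vehicle mice, against 74.8, 67.3, 60.9, 82.6 and 61.5 CPM in control diet vehicle mice. Each Western diet group held 1 mouse above the rest, VB mouse 4 and vehicle mouse 2, still far below control diet. The log2 change was -2.34 (SE 0.16, adjusted p = 1.45e-09, edgeR) in VB mice and -2.81 (SE 0.16, adjusted p = 4.35e-11) in vehicle mice.

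Hsd17b7 (chromosome 1, 169949535 to 169969241, minus strand) had 23.7, 21.6, 21.6, 19.6 and 19.2 CPM in Western diet VB mice, against 48.8, 57.9, 65.3, 48.9 and 55.9 CPM in control diet VB mice. It had 20.7, 24.1, 21.7, 22.0 and 23.2 CPM in Western diet vehicle mice, against 58.1, 59.1, 51.1, 68.5 and 56.4 CPM in control diet vehicle mice. Within a diet the VB and vehicle mice overlapped. The log2 change with diet was -1.39 in VB mice (SE 0.0949, adjusted p = 1.46e-09, edgeR) and -1.39 in vehicle mice (SE 0.0951, adjusted p = 5.56e-10), which left 38.2% of the control diet mean in VB mice and 38.1% in vehicle mice.

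Ebp (chromosome X, 8185329 to 8193512, minus strand) had 219, 209.5, 221, 265 and 197 CPM in Western diet VB mice, against 259.5, 279.9, 275, 283 and 277 CPM in control diet VB mice. It had 208, 213, 188, 243 and 172 CPM in Western diet vehicle mice, against 338, 322, 312, 330.4 and 290.1 CPM in control diet vehicle mice. Western diet VB mouse 4 stood above control diet VB mouse 1, so the diets overlapped in VB mice, while in vehicle mice they did not. The log2 change was -0.31 (SE 0.0902, adjusted p = 0.0439, edgeR) in VB mice and -0.64 (SE 0.0905, adjusted p = 3.00e-05) in vehicle mice. In VB mice the call was lost when any 1 mouse was left out except Western diet VB mouse 4, Western diet vehicle mouse 2, 3, 4 or 5, or control diet vehicle mouse 1 or 5 (adjusted p 0.0109 to 0.0978 over the 20 fits, and 0.0808 without Western diet VB mouse 1). It was also lost, with all mice kept, with no filter on low counts (adjusted p = 0.0586) and with lane 1 only (0.0662).

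Sc5d (chromosome 9, 42251595 to 42264256, minus strand) had 341.5, 272, 302, 300.5 and 221 CPM in Western diet VB mice, against 417, 631, 541, 478 and 440.1 CPM in control diet VB mice. It had 213, 277, 186, 183 and 204 CPM in Western diet vehicle mice, against 601.5, 678.5, 534, 545 and 519 CPM in control diet vehicle mice. The diets did not overlap in either treatment. The log2 change was -0.80 (SE 0.13, adjusted p = 0.000532, edgeR) in VB mice and -1.44 (SE 0.13, adjusted p = 1.20e-07) in vehicle mice.

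Dhcr7, the last ring reductase (chromosome 7, 143823145 to 143848410, plus strand), had 27.0, 18, 18.4, 19.8 and 14 CPM in Western diet VB mice, against 42.0, 74.2, 66.0, 59.4 and 59.7 CPM in control diet VB mice. It had 10.8, 14.7, 12.2, 9.37 and 10.8 CPM in Western diet vehicle mice, against 77.3, 78.2, 66.0, 79.3 and 63.3 CPM in control diet vehicle mice. The highest Western diet mouse, VB mouse 1, stayed below the lowest control diet mouse, VB mouse 1. The log2 change was -1.64 (SE 0.16, adjusted p = 4.05e-07, edgeR) in VB mice and -2.65 (SE 0.16, adjusted p = 1.69e-10) in vehicle mice.

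**Figure D3:**
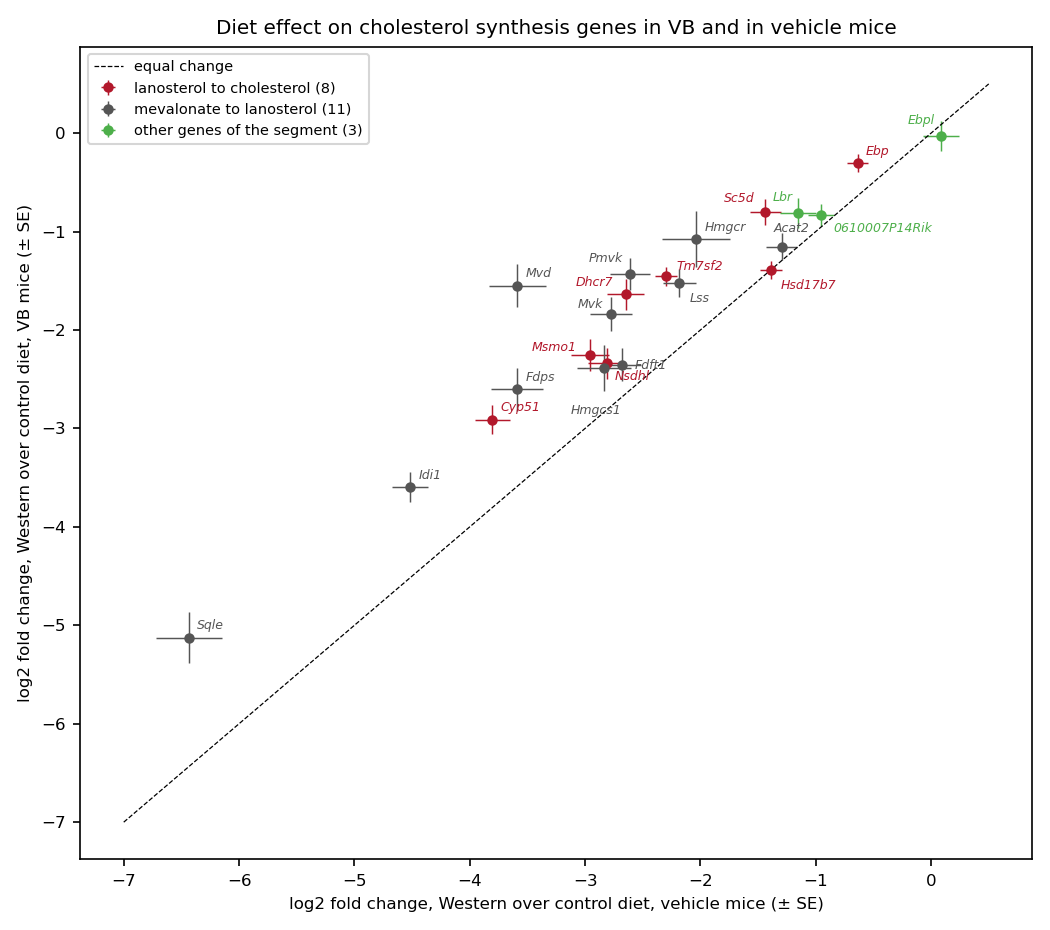
Log2 change on Western diet over control diet in VB mice (y axis) and in vehicle mice (x axis), with SE bars from edgeR, for the 8 members, 11 upstream enzymes and 3 other genes of the segment; the dashed line marks equal change. Among the 8 members Cyp51 lies lowest (-2.91 in VB mice, -3.81 in vehicle mice) and Ebp highest (-0.31 in VB mice, -0.64 in vehicle mice), Hsd17b7 lies on the line and the other 7 lie above it.

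The order of the falls was much alike in the 2 sets of mice. Cyp51 fell most in both, Nsdhl and Msmo1 held the next 2 places, Dhcr7 the fourth, Tm7sf2 the fifth and Ebp the last. Hsd17b7 and Sc5d exchanged the sixth and seventh places. The clock score moved with diet in vehicle mice (1.30 ± 0.12 on Western diet against -1.29 ± 0.38 on control diet) and its ranges overlapped between the diets in VB mice (-0.21 to 0.73 on Western diet, -0.58 to 0.02 on control diet). With the score as a covariate 7 of 8 members were called lower in each treatment, Ebp being the exception (log2 change -0.34, adjusted p = 0.0884 in VB mice, and -0.79, adjusted p = 0.631 in vehicle mice). Over all genes that fit called 537 in VB mice (316 lower) and 31 in vehicle mice (28 lower). Without the score 813 were called in VB mice and 2083 in vehicle mice.

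The next question was what VB did on Western diet. Cyp51, Tm7sf2, Sc5d and Dhcr7 were higher in VB mice than in vehicle mice, while Msmo1, Nsdhl, Hsd17b7 and Ebp did not pass the test. The rises were small beside the diet falls, and left each of the 4 genes below its control diet range. In edgeR's test 4 of 8 members were called higher and none lower, where 7.19% of all genes were called and 3.33% as higher. The ranges of 2 members, Cyp51 and Tm7sf2, lay wholly above those of vehicle mice, against 2.59% of all genes. The median log2 change of the 8 was 0.39, beside -0.0160 over all genes.

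Dhcr7 averaged 19.4 ± 4.75 CPM in Western diet VB mice, against 11.6 ± 2.04 in Western diet vehicle mice (SD, n = 5 each), a log2 change of 0.74 (SE 0.16, adjusted p = 0.00594, edgeR). VB mouse 5, at 14 CPM, lay below vehicle mouse 2, at 14.7 CPM, and the other VB mice lay above every vehicle mouse. Cyp51 averaged 22.5 ± 3.22 CPM in Western diet VB mice, against 14.4 ± 3.03 in Western diet vehicle mice, a log2 change of 0.64 (SE 0.14, adjusted p = 0.00725). Its lowest VB mouse, at 17.5 CPM, was just above the highest vehicle mouse, at 17.3 CPM. Tm7sf2 averaged 48.9 ± 6.74 CPM in Western diet VB mice, against 32.9 ± 2.74 in Western diet vehicle mice, a log2 change of 0.57 (SE 0.0945, adjusted p = 0.000880). Sc5d averaged 287 ± 44.4 CPM in Western diet VB mice, against 212 ± 38.3 in Western diet vehicle mice, a log2 change of 0.44 (SE 0.13, adjusted p = 0.0469). For Sc5d vehicle mouse 2, at 277 CPM, lay above VB mice 2 and 5.

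Of the members that did not pass, Msmo1 averaged 33.4 ± 7.25 CPM in Western diet VB mice, against 26.2 ± 4.47 in Western diet vehicle mice (log2 change 0.35, SE 0.16, adjusted p = 0.215). Nsdhl averaged 11.2 ± 2.73 CPM in VB mice and 9.89 ± 2.42 in vehicle mice (log2 change 0.18, SE 0.16, adjusted p = 0.592). Hsd17b7 averaged 21.1 ± 1.83 CPM in VB mice and 22.4 ± 1.34 in vehicle mice (log2 change -0.08, SE 0.0952, adjusted p = 0.71). Ebp averaged 222 ± 25.8 CPM in VB mice and 205 ± 26.8 in vehicle mice (log2 change 0.12, SE 0.0902, adjusted p = 0.525). The members called as higher thus sit at the first pair of steps and the last pair, and the 4 steps between them were not called. That split rests on the threshold, since Sc5d passed only narrowly (adjusted p = 0.0469, edgeR). The log2 change of Msmo1, 0.35 (SE 0.16), was close to that of Sc5d, 0.44 (SE 0.13). A test of the members against each other was not made.

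The Sc5d call on Western diet was lost when any single mouse was left out except Western diet VB mouse 5, Western diet vehicle mouse 2, control diet VB mouse 1 or 2, or control diet vehicle mouse 2 (adjusted p 0.0124 to 0.122 over the 20 fits). It was also lost, with all mice kept, with no filter on low counts (adjusted p = 0.0507), with only the groups compared (0.114), with lane 1 only (0.0503) and with lane 2 only (0.0516). Without the doubly labelled VB mouse 1, 3 members were called, with log2 changes of 0.60 for Cyp51, 0.56 for Tm7sf2 and 0.60 for Dhcr7 (adjusted p 0.0194, 0.00228 and 0.0194), and Sc5d was at 0.37 (adjusted p = 0.122). The clock score lay at -0.21 to 0.73 in Western diet VB mice and at 1.19 to 1.48 in Western diet vehicle mice, without overlap. With the score as a covariate no member was called on Western diet, where 5 of all 12616 genes were called, in place of 907 without it. The log2 changes were then 0.90 for Cyp51, 0.75 for Tm7sf2, 0.70 for Sc5d and 1.08 for Dhcr7, larger than without it, with adjusted p of 0.195, 0.0938, 0.310 and 0.132. With Mup genes left out of library sizes 4 members were called. The part of the adipocyte and acinar marker differences, carried mostly by Cfd and Cela1, in these results was not tested.

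**Figure D4:**
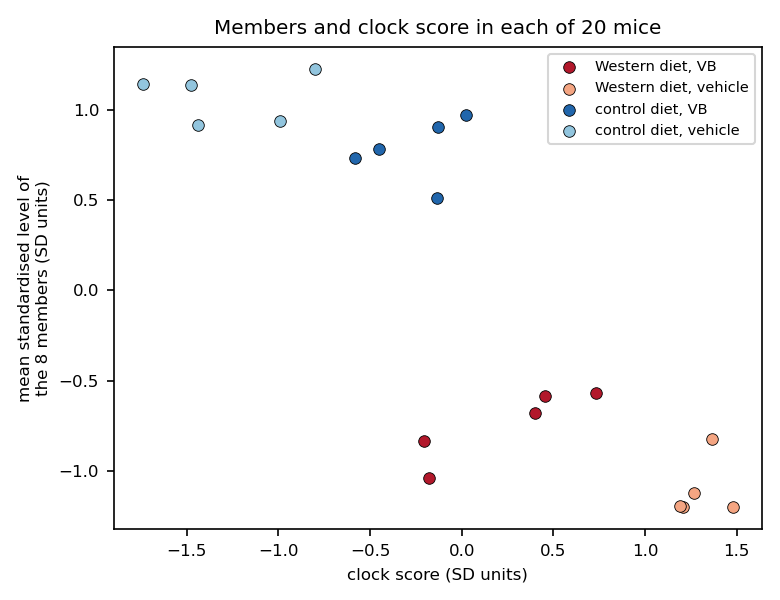
Mean standardised level of the 8 members (y axis, SD units) against the clock score (x axis, SD units) in the 20 mice, coloured by group. The Western diet VB and control diet VB mice overlap on the clock axis and lie apart on the member axis (-0.74 ± 0.20 against 0.78 ± 0.18), whereas the vehicle groups lie apart on both.

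On control diet the VB question had another answer. All 8 members had lower means in VB mice than in vehicle mice, but none passed the test, so no change was called. In edgeR's test 0 of 8 were called, where 0.151% of all genes were called in either direction. DESeq2 and limma-voom called 0 of 8 as well. At an unadjusted p under 0.05 there were 3 members, Tm7sf2, Msmo1 and Ebp, where 10.7% of all genes passed. Tm7sf2 and Ebp were lower in VB mice without overlap, against 2.01% of all genes. The median log2 change of the 8 was -0.26, beside 0.0016 over all genes.

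Tm7sf2 averaged 134 ± 13.2 CPM in control diet VB mice and 162 ± 7.64 in control diet vehicle mice (log2 change -0.27, SE 0.0923, adjusted p = 0.275, edgeR). Ebp averaged 275 ± 9.20 CPM in control diet VB mice and 319 ± 18.6 in control diet vehicle mice (log2 change -0.21, SE 0.0901, adjusted p = 0.392). Msmo1 averaged 159 ± 33.3 CPM in control diet VB mice and 203 ± 34.5 in control diet vehicle mice (log2 change -0.36, SE 0.15, adjusted p = 0.408), with VB mice 2 and 3 inside the vehicle range. The log2 changes of the other 5 lay between -0.29 for Nsdhl and -0.08 for Hsd17b7, with adjusted p of 0.490 to 0.783. Cyp51 averaged 169 ± 22.4 CPM in control diet VB mice and 202 ± 31.2 in control diet vehicle mice. Nsdhl averaged 56.7 ± 6.34 CPM with VB and 69.4 ± 9.25 with vehicle there, and Dhcr7 60.3 ± 11.8 CPM with VB and 72.8 ± 7.54 with vehicle. VB mouse 1 was the lowest or nearly the lowest control diet mouse for Cyp51, Nsdhl and Dhcr7. The clock score was -0.25 ± 0.25 in control diet VB mice and -1.29 ± 0.38 in control diet vehicle mice. Its part in these values was not tested beyond the covariate fit, which also called 0 of 8 and 0 of all genes.

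Whether the VB effect depended on diet was tested directly, as the log2 change with VB on Western diet minus that on control diet. For Dhcr7, Cyp51, Tm7sf2 and Sc5d the effect was higher on Western diet, and for Hsd17b7 the difference was 0.00. In edgeR's test 4 of 8 members were called higher and none lower, where 7.64% of all genes were called and 3.63% as higher. The median difference of the members was 0.67, beside -0.0198 over all genes.

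The difference was 1.01 for Dhcr7 (SE 0.22, adjusted p = 0.00624, edgeR), 0.90 for Cyp51 (SE 0.20, adjusted p = 0.00640), 0.84 for Tm7sf2 (SE 0.13, adjusted p = 0.000527) and 0.63 for Sc5d (SE 0.19, adjusted p = 0.0381). The values that did not pass were 0.70 for Msmo1 (SE 0.22, adjusted p = 0.0539), 0.47 for Nsdhl (SE 0.22, adjusted p = 0.211), 0.33 for Ebp (SE 0.13, adjusted p = 0.125) and 0.00 for Hsd17b7 (SE 0.13, adjusted p = 0.998). The same quantity is the diet fall in VB mice set against that in vehicle mice, so for each of the 4 genes called, the Western diet left a larger share of the control diet level in VB mice. That share was 32.3% in VB mice and 15.9% in vehicle mice for Dhcr7, and 36.5% in VB mice and 20.3% in vehicle mice for Tm7sf2. It was 57.3% in VB mice and 36.9% in vehicle mice for Sc5d. For Msmo1 it was 21.0% in VB mice and 12.9% in vehicle mice, and for Nsdhl 19.8% in VB mice and 14.2% in vehicle mice.

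**Figure D5:**
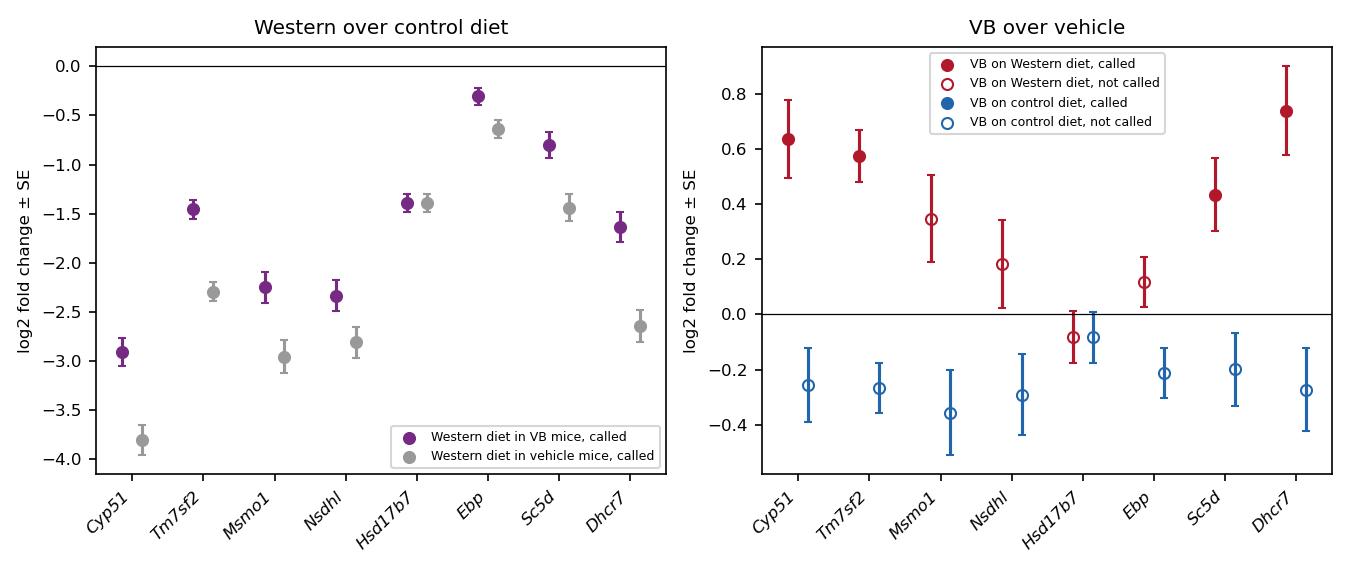
Log2 change of each member on Western diet over control diet in VB mice and in vehicle mice (left), and with VB over vehicle on Western diet and on control diet (right), with SE bars from edgeR; filled points pass an adjusted p of 0.05. All diet changes lie below 0, while with VB Cyp51, Tm7sf2, Sc5d and Dhcr7 pass on Western diet and none passes on control diet.

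The Sc5d difference no longer passed when any 1 mouse was left out except Western diet VB mouse 5, Western diet vehicle mouse 2 or 4, control diet VB mouse 2 or 3, or control diet vehicle mouse 3, 4 or 5 (adjusted p 0.0120 to 0.0771 over the 20 fits). Msmo1 passed without Western diet VB mouse 5, Western diet vehicle mouse 2 or control diet VB mouse 2 or 3 (adjusted p 0.0298 to 0.104 over the 20 fits). With all mice kept, Msmo1 also passed with DESeq2 (adjusted p = 0.0261) and with lane 1 only (0.0485). Ebp passed without Western diet vehicle mouse 4 (adjusted p = 0.0224, edgeR). Without Western diet VB mouse 1 the differences were 0.87 for Dhcr7, 0.86 for Cyp51 and 0.83 for Tm7sf2 (adjusted p 0.0107, 0.0127 and 0.00120), and Sc5d at 0.57 did not pass (adjusted p = 0.0721). With the clock score as a covariate no member passed, where 1 of all 12616 genes was called, in place of 964 without it. The differences were then 1.70 for Dhcr7, 1.41 for Cyp51, 1.20 for Tm7sf2 and 1.17 for Sc5d (adjusted p 0.423, 0.438, 0.340 and 0.644).

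Members varied among themselves in how tightly mice of a group agreed. The median coefficient of variation within groups was 8.72% for Ebp, 9.09% for Tm7sf2 and 9.72% for Hsd17b7, against 14.9% for Cyp51, 16.3% for Sc5d, 18.6% for Dhcr7, 18.9% for Nsdhl and 19% for Msmo1. Over the 28 pairs of members and the 20 mice, the median Pearson r of log2 CPM was 0.97, a value carried by the diet difference that all points share. After group means were subtracted the median r was 0.50. The pair most alike was then Msmo1 and Hsd17b7 (r = 0.91), both in the complex that removes the methyl pair. The third gene of that complex, Nsdhl, was less like them (r = 0.46 with Msmo1 and 0.33 with Hsd17b7). Cyp51 and Ebp were the least alike (r = -0.50). The log2 ratio of Cyp51 to Ebp ran from -3.92 to -3.11 in Western diet VB mice and from -4.57 to -3.31 in Western diet vehicle mice. It ran from -0.96 to -0.48 in control diet VB mice and from -0.86 to -0.37 in control diet vehicle mice.

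The 11 enzymes upstream, which lead to lanosterol, were all lower on Western diet in both treatments, with a median log2 change of -1.84 in VB mice and -2.78 in vehicle mice. Sqle, squalene epoxidase, was at -5.12 in VB mice and -6.44 in vehicle mice, further below 0 than any of the 8 members. Its Western diet levels were low, at 1.34 to 3.17 CPM in VB mice and 0.549 to 1.74 in vehicle mice. Idi1, isopentenyl diphosphate isomerase, was at -3.60 in VB mice and -4.52 in vehicle mice. With VB on Western diet 4 of the 11 were called higher and none lower: Mvd (log2 change 1.33, SE 0.25, adjusted p = 0.00232, edgeR), Idi1 (0.60, SE 0.14, adjusted p = 0.0129), Pmvk (0.63, SE 0.17, adjusted p = 0.0255) and Fdps (0.71, SE 0.21, adjusted p = 0.0405). On control diet 0 of 11 were called with VB, and the median was -0.39. The difference of the VB effects was called higher in 7 of 11, with Mvd at 2.04, Pmvk at 1.18, Mvk at 0.94 and Idi1 at 0.92. Without Western diet VB mouse 1, 11 of 11 were called lower on Western diet in each treatment, 2 were called higher with VB there and 5 in the difference. Pmvk (adjusted p = 0.0604) and Fdps (0.0517) were the 2 that no longer passed with VB on Western diet.

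Other genes of the same segment were also measured. Lbr, which encodes a nuclear envelope protein with the same reductase activity as Tm7sf2, was lower on Western diet by a log2 change of -0.81 in VB mice (SE 0.15, adjusted p = 0.00132, edgeR) and -1.15 in vehicle mice (SE 0.15, adjusted p = 1.22e-05). 0610007P14Rik, the mouse Erg28, whose yeast counterpart is a scaffold of the methyl-removing complex, was at -0.83 in VB mice (SE 0.11, adjusted p = 3.64e-05) and -0.95 in vehicle mice (SE 0.11, adjusted p = 2.33e-06). Ebpl, which resembles Ebp in sequence, was not called in any comparison. With VB, none of these genes was called on either diet. The diet calls of Lbr and 0610007P14Rik were kept without Western diet VB mouse 1.

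Several of the enzymes take electrons from shared partners. Por, the reductase that supplies Cyp51, averaged 401 ± 58.1 CPM in Western diet VB mice, against 777 ± 104 in Western diet vehicle mice, and was lower with VB there by a log2 change of -0.95 (SE 0.16, adjusted p = 0.00110, edgeR). It averaged 472 ± 63.0 CPM in control diet VB mice and 279 ± 82.1 in control diet vehicle mice (log2 change 0.76, SE 0.16, adjusted p = 0.0549). The difference of its VB effects was -1.71 (SE 0.23, adjusted p = 0.000182), opposite in sign to that of Cyp51. On Western diet Por was higher in vehicle mice by a log2 change of 1.48 (SE 0.17, adjusted p = 1.78e-06), while Cyp51 was lower. Cyb5b and Cyb5a both encode cytochromes of the kind that supplies the desaturase and oxidase steps. Which of them does so here was not tested. Cyb5b was lower on Western diet by -0.50 in VB mice (SE 0.13, adjusted p = 0.0278). In vehicle mice its change was -0.71 (SE 0.13, adjusted p = 0.000668). Cyb5a was more abundant than Cyb5b in every group and was called in no comparison. Cyb5a averaged 1114 CPM with VB and 1535 with vehicle on Western diet, against 1172 with VB and 1260 with vehicle on control diet. Pgrmc1, a haem-binding partner of Cyp51, was lower with VB on Western diet by -0.42 (SE 0.0916, adjusted p = 0.00622). Without Western diet VB mouse 1 the Cyb5b call in VB mice was lost (adjusted p = 0.0524) and the other calls of Por, Cyb5b and Pgrmc1 were kept.

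Of 9 genes of SREBP2 control and sterol uptake, 2 were called lower on Western diet in VB mice and 5 in vehicle mice. Srebf2, which encodes SREBP2, was at -0.73 in VB mice (SE 0.12, adjusted p = 0.000600, edgeR) and -1.12 in vehicle mice (SE 0.12, adjusted p = 1.20e-06). With VB on Western diet 2 were called higher, among them Insig1 at 1.26 (SE 0.24, adjusted p = 0.00303), and on control diet none was called. Insig1 encodes a membrane anchor that holds SREBP2 back. It was also called in the difference of the VB effects, at 1.57 (SE 0.34, adjusted p = 0.00704). Of 6 genes that answer to the oxysterol receptor LXR, 3 were higher on Western diet in VB mice and 4 in vehicle mice. The sterol exporter genes Abcg5 and Abcg8 led them, with log2 changes of 1.74 and 1.43 in VB mice and 1.83 and 1.48 in vehicle mice. None of the 6 was called with VB on either diet. Without Western diet VB mouse 1, 3 of the 9 SREBP2 genes were called lower on Western diet in VB mice and 6 in vehicle mice, 3 of the 6 LXR genes were called higher in each treatment, and both Insig1 calls were kept.

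The genes whose log2 CPM was most like the mean standardised level of the 8 members over the 20 mice were Rdh11 (r = 0.99), Idi1 (r = 0.99), Sqle (r = 0.98), Fdps (r = 0.98), Lss (r = 0.98) and Hmgcs1 (r = 0.98). Rdh11, a retinol dehydrogenase, averaged 13.9 ± 2.71 CPM in Western diet VB mice, 10.6 ± 1.36 in Western diet vehicle mice, 59.5 ± 14.4 in control diet VB mice and 65.8 ± 10.4 in control diet vehicle mice. These mice share the diet difference, which carries most of each r. After group means were subtracted the most alike were Hmgcs1 (r = 0.88), Fdft1 (r = 0.86), Acat2 (r = 0.83), H2-Q10 (r = 0.81), Gm20517 (r = 0.80) and Bloc1s5 (r = 0.78), again over 20 mice. These values are descriptions of the same libraries and carry no test.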

How the data were processed

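Liver RNA libraries were made with a TruSeq kit, per the labels' protocols. The authors deposited raw read counts, 32544 gene rows by 40 lane files. GRCm38 is the build named, per the submitters' processing notes. No aligner, counter, gene annotation or strand setting is named in the sources read here.

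The 2 lane files of each mouse came from 1 library (chi-square per degree of freedom 1.33 to 1.49 between lanes with at least 20 reads a gene, 10.3 to 80.8 between mice of a group) and were summed. Groups came from the titles, 5 mice each, so that p-values measure the spread between mice. In R 4.3.3, filterByExpr (minimum count 10, minimum total 15) left 12616 genes holding at least 99.9% of the counts of each mouse. Counts were scaled by TMM, all 4 groups were fitted together with edgeR 4.0.16 (robust quasi-likelihood), and calls used a Benjamini-Hochberg adjusted p under 0.05 over all genes tested. CPM are on TMM-scaled library sizes, and log2 CPM used a prior count of 2. DESeq2 1.42.0 and limma 3.58.1 were alternatives. The procedure was tested on simulated data, with changes placed only in Western diet VB mice. Those data held no diet or clock difference, so that test cannot speak to either.

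The members, the other gene lists, the named-gene rule and the motifs were chosen with earlier results of these data known. The rule named all members, up to 4 called genes with the smallest p of each other list, lists of 4 genes or fewer whole, and the 6 most alike genes. Cyb5a was named outside this rule, beside Cyb5b. Some listed genes were fitted and counted with their lists but have no values reported here. Other alternatives were RLE and upper quartile scaling, no filter, a fit of only the 2 groups set against each other, a block for the mouse number, single lanes, the clock score as a covariate, Mup genes left out of library sizes and leaving out each mouse. Gene positions and exon lengths came from GENCODE M21 and promoters from RefSeq, both GRCm38; all 8 members matched by symbol.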

Additional observations from a re-analysis of the deposited data

Results flagged for a closer look

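The effect of VB differed between the diets, by the test of the difference itself, in 4 of the 8 members, all higher. Over all genes 7.64% were called in that test, and 3.63% as higher. The log2 difference (Western diet effect minus control diet effect) was 1.01 for Dhcr7, with effects of 0.74 on Western diet and -0.27 on control diet. It was 0.90 for Cyp51, with effects of 0.64 on Western diet and -0.26 on control diet. It was 0.84 for Tm7sf2, with effects of 0.57 on Western diet and -0.27 on control diet. It was 0.63 for Sc5d, with effects of 0.44 on Western diet and -0.20 on control diet. The Sc5d call was lost in 12 of the 20 fits that left out 1 mouse, among them that without Western diet VB mouse 1. With the clock score as a covariate none of the 8 passed. No mouse stood apart from its group by Dixon's criterion (0.71 for 5 mice) in any of the 32 combinations of member and group.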

How the results depend on the processing

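Over the 432 values of single genes under alternatives that kept all mice, 411 kept their direction and side of the threshold, 16 lost a call, 2 gained one and 3 turned direction. Over the 800 that left out 1 mouse, the numbers were 745, 40, 5 and 10. Every turn was in Hsd17b7. Its difference of VB effects was -0.000429 with limma-voom, -0.00331 with lane 1 only and -0.0606 to 0.0679 with 1 mouse left out. With the clock covariate its VB change on Western diet was 0.12.

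Members called with the clock covariate were 0 for VB on Western diet and 0 for the difference, in place of 4 each. Genes called were then 5 in place of 907 for VB on Western diet, 0 in place of 19 for VB on control diet, 537 in place of 813 for diet in VB mice, 31 in place of 2083 for diet in vehicle mice (3 higher and 28 lower, in place of 1125 and 958) and 1 in place of 964 for the difference. With only the groups compared, VB on Western diet gave 464 genes. The 19 genes called with VB on control diet (7 higher, 12 lower) became 29 (14 higher, 15 lower) with upper quartile scaling, 164 with DESeq2, 45 with limma-voom, 66 with only the groups compared, 36 with lane 2 only and 30 (16 higher, 14 lower) with Mup genes left out. The cause was not tested. Only the groups compared could not be run for the difference, which uses all 4.

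With 1 mouse left out, members called ranged from 3 to 4 for VB on Western diet, stayed at 0 for VB on control diet, ranged from 7 to 8 for diet in VB mice, stayed at 8 for diet in vehicle mice and ranged from 3 to 5 for the difference. Genes called with VB on control diet ranged from 6 to 66: 52 and 29 without Western diet vehicle mouse 4 and 5, 10 and 8 without control diet VB mouse 3 and 4, and 6, 11 and 66 without control diet vehicle mouse 1, 3 and 5. For diet in VB mice they ranged from 541 (without control diet VB mouse 4) to 1397 (without Western diet vehicle mouse 4), and for the difference from 665 to 1702 (without Western diet vehicle mouse 4).

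Mouse numbers were not taken to pair the mice, since not every pair's r was above 0.1. That rule cannot show that the numbers carry no shared order or batch. Over the 30 pairs with the same number, r of the deviations from group means was -0.0652 to 0.378 (median 0.0447, against -0.0143 for pairs with other numbers), with 7 above 0.1. As a hint from the data, 10 of 20 mice were most like 1 of their own number. With the mouse number as a replicate block, VB on control diet gave 65 genes called in place of 19, and VB on Western diet 1067 in place of 907. Diet gave 973 in place of 813 in VB mice and 2312 in place of 2083 in vehicle mice, and the difference 1146 in place of 964. No member's call changed, and the cause of the added calls was not tested. Across genes as a set, mice of a group differed by more than the lanes of 1 mouse did. Whether this holds for single members, counted down to 131 times, was not tested.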
